A study of Mus musculus with 3 samples.

Results

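Desert regions are stretches of open chromatin that lie far from the start of any protein-coding gene, here 464 regions of the mouse autosomes. They were found by merging the longer of the deposited peak lists of 3 DNase-seq libraries wherever peaks overlapped by at least 1 bp. A merged region was kept when it held a peak of all 3 libraries, lay over 200 kb from every protein-coding transcription start site (TSS) and lay outside every protein-coding gene body. The end of a long gene can still lie close by. The member nearest to Ebf1 starts at chr11:45008181, and Ebf1 ends at 45008091. The 464 regions made up 1.38% of the 33722 autosomal regions with a peak of all 3 libraries. The regions they are set against are 15892 distal regions, open in all 3 libraries at 1 to 50 kb from a TSS, inside or outside genes. The members were selected on peak calls in all 3 libraries, on distance and on gene bodies, so these measures carry no test.

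DNase-seq was run on primary monocytes of female B6CASTF1/J mice aged 2 months, the first-generation cross of C57BL/6J and CAST/EiJ. Monocytes are blood phagocytes that become macrophages in tissue. The 3 libraries are labelled biological replicates 1, 2 and 4, form 1 group and share 1 donor identifier. The labels do not say whether separate animals were used, so an SD below measures how far these 3 libraries differ and may reflect technical spread alone.

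DNase I cuts DNA where nucleosomes are displaced, so a peak of cuts marks an accessible promoter or regulatory element. A footprint is a short protected stretch inside such a peak, where a bound protein can shield the DNA. Distal elements work through DNA loops that bring them near promoters, and some genes that control development and blood cell identity have enhancers in the gene-poor sequence beside them. CTCF is a zinc finger protein that anchors such loops, and PU.1, an ETS factor, opens enhancers throughout the myeloid lineage, often together with RUNX, C/EBP, AP-1 and IRF factors.

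The cell label was checked on promoters, counting a gene as open when a peak of all 3 libraries lay within 1 kb of a protein-coding TSS. Of all 20696 autosomal genes, 51.8% were open by this rule. Of 10 monocyte markers 6 were open (Csf1r, Cx3cr1, Itgam, Cd14, Lyz2 and Klf4), while Ccr2, Fcgr1, Fcgr4 and Ly6c2 were not open in all 3. Of the other lineages, 2 of 8 neutrophil markers, 2 of 7 B cell markers (Ebf1 and Blnk), 1 of 8 T cell markers (Cd5), 0 of 7 natural killer, 0 of 7 erythroid and 0 of 5 hepatocyte markers were open. The part that other cells may have in the desert regions was not tested. The longer lists held 54046, 42657 and 48980 peaks in replicates 1, 2 and 4. The files give no read counts, so the depth behind a peak is unknown.

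Several desert regions show the kinds of sequence found there. Each line gives 200 bases around the middle of a region, on the plus strand of GRCm38.p6 (mm10) as read from the RefSeq assembly, which carries the C57BL/6J sequence. Capitals mark matches, on either strand, to short letter patterns of CTCF, of IRF, of PU.1 (GAGGAAGT), of RUNX (TGTGGTT), of C/EBP (TTGCNNAA) and of AP-1 (TGANTCA), where N is any base. M10 is the tallest region with a CTCF match whose 31-base words all occur once in the assembly, and M4 is the tallest region with such words.
M10, chr10:66853291-66853490: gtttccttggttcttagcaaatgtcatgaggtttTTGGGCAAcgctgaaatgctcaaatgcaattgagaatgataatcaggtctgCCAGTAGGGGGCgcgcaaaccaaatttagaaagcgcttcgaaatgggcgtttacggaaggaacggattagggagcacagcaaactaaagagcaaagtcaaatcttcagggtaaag
M4, chr13:107831301-107831500: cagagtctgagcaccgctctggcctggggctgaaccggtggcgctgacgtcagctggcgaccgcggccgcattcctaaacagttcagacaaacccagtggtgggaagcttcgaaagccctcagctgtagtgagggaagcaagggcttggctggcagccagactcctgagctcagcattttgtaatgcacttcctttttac
M11 is the tallest such region with a PU.1 match, which lies on the minus strand, and M3 is the region farthest from any TSS.
M11, chr13:110903341-110903540: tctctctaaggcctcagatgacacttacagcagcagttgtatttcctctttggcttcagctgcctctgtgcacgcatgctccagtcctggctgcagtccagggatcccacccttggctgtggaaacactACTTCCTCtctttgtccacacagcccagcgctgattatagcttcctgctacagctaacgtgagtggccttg
M3, chr1:102628161-102628360: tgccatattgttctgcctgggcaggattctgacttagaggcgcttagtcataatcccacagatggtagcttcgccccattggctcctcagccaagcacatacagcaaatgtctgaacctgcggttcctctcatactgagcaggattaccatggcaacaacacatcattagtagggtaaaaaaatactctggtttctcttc
M21 is the tallest region nearest to Id2 and holds an AP-1 match, and M215 is the region of the Klf4 group with a PU.1 match, also on the minus strand.
M21, chr12:25389261-25389460: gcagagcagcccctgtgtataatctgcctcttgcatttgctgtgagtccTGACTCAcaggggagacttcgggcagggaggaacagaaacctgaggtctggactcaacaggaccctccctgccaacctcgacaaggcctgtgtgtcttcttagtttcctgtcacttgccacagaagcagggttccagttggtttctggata
M215, chr4:55814860-55815059: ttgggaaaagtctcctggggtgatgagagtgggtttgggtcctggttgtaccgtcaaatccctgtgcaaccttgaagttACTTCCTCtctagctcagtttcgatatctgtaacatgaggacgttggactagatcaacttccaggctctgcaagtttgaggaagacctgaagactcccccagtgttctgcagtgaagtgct
The CTCF match of M10 lies at chr10:66853376-66853387 and reads CCAGTAGGGGGC. Footprints of all 3 libraries covered it, each starting at position 66853371 and ending at 66853398 or 66853399. A C/EBP match in M10 lay under a footprint of replicate 1 and of no other library. No footprint of any library covered the PU.1 matches of M11 and M215 or the AP-1 match of M21. M3 and M4, taller than M10, held no match to any of the 6 patterns.

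Desert sequence held few open sites. The desert spans 536 Mb, which is 22.4% of the assembled autosomes, and held 0.865 regions of all 3 libraries per Mb (95% Poisson interval 0.788 to 0.948), against 15.4 per Mb in distal sequence (15.1 to 15.6). Intervals in this text cover counting error only. They treat regions as independent, although many desert regions lie close together, so they may be too narrow. In single libraries the density of peaks was 2.15, 1.65 and 1.85 regions per Mb in the desert, against 24.8, 18.2 and 22.2 per Mb in distal sequence, for replicates 1, 2 and 4. The ratio was 0.0867 ± 0.0037 (SD, n = 3 libraries).

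Most merged desert regions came from a single library. Of 1884 merged desert regions, 464 held a peak of all 3 libraries (24.6%), 215 of 2 libraries and 1205 of a single library, while 15892 of 30458 merged distal regions were in all 3 (52.2%). Across all merged autosomal regions the share in all 3 was 54.7%. Because recurrence is part of how the members were chosen, this is a description with no test. Desert peaks seen in a single library were low, with a median height of 0.289, 0.31 and 0.309 in replicates 1, 2 and 4.

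Peak height is the authors' own value of cleavage density for a peak, on a scale that the sources used here do not define, and is read here within a library. The median height of desert regions was 0.882 in replicate 1, 0.745 in replicate 2 and 0.984 in replicate 4, against 1.22, 0.984 and 1.37 for distal regions in the same libraries. Desert regions were therefore the lower class in each library, at 0.732 ± 0.0217 of the distal median (SD, n = 3). A two-sided exact sign-flip permutation test over the 3 libraries gave p = 0.25, the smallest p that 3 libraries allow, so no test here can pass 0.05. Both classes hold only regions called in all 3 libraries, so the lowest sites are missing from both. The difference between the classes was larger than the spread of the ratio between libraries.

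The gap followed distance. Among regions outside protein-coding genes, the median height in replicate 1 was 1.34 at 1 to 10 kb from a TSS, 1.21 at 10 to 50 kb, 1.07 at 50 to 100 kb, 0.989 at 100 to 200 kb, 0.907 at 200 to 500 kb and 0.581 beyond 500 kb. The other libraries fell in the same order, to 0.59 in replicate 2 and 0.718 in replicate 4 in the last bin, which held 38 regions. Set against the 2371 intergenic regions at 50 to 200 kb, desert regions reached 0.869 ± 0.018 of the median (SD, n = 3). The share of merged regions with a peak of all 3 libraries fell over the same bins, with 57.1% at 1 to 10 kb, 41.3% at 100 to 200 kb, 30.9% at 200 to 500 kb and 7.54% beyond 500 kb.

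**Figure D1:**
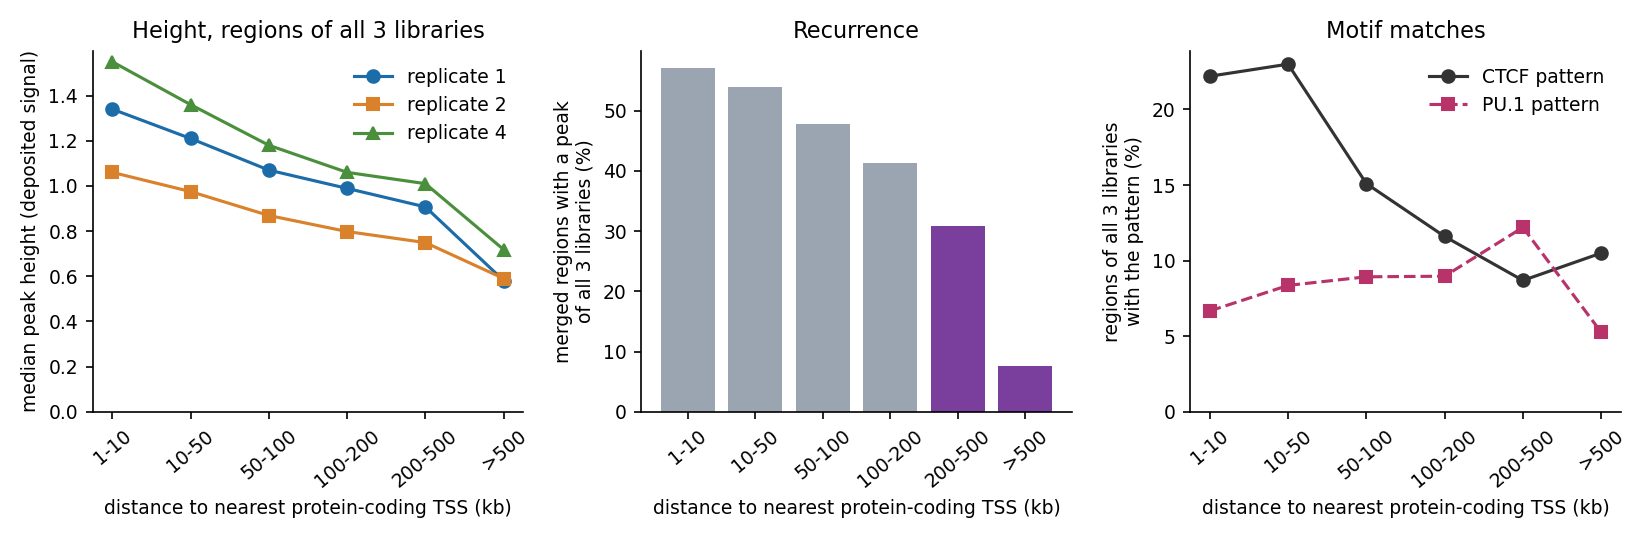
Left, median peak height (deposited signal) of regions open in all 3 libraries, by distance to the nearest protein-coding TSS in kb, with a line for each library; middle, the percentage of merged regions with a peak of all 3 libraries, with the desert bins in purple; right, the percentage of shared regions with a CTCF or PU.1 pattern. All regions lie outside protein-coding genes. Height falls from bin to bin in each library, and recurrence falls too, while the PU.1 share rises to 12.2% at 200 to 500 kb before the last bin of 38 regions.

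On either side of the limit of 200 kb heights were mixed. The nearest members beyond it were M2 near Rab10 at 200049 bp, with a mean height of 9.28, M342 near Sesn3 at 200507 bp, with 0.641, and M100 near Gm10260 at 200632 bp, with 1.46. The nearest regions short of it, not members, lay near Lpp at 199880 bp, with a mean height of 2.9, near Peli2 at 199703 bp, with 1.91, and near Spdye4c at 199699 bp, with 1.

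A few desert regions were tall. The tallest, M1 at chr8:20122141-20122320, reached 12.2, 10.5 and 16.2 in replicates 1, 2 and 4, which are percentiles 99.3, 99.4 and 99.2 among all shared autosomal regions. It lies 64 bp from the start of Gm21769, a processed pseudogene, and 219 kb from the predicted gene Gm31371. Only 25.9% of the 31-base words in its window were unique in the assembly, and blastn found 5 near copies elsewhere, that is alignments of at least 90% identity over at least 80% of its length.

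Repeated sequence marked several of the tallest regions. M2 at chr12:3109801-3109920 had heights of 9.23, 6.1 and 12.5, with 61.2% unique words and 356 shorter alignments elsewhere. M9, nearest to the muscle gene Myom2, had 5.31, 4.68 and 5.38, and 15 near copies. Of the 10 tallest regions, 3 had a near copy (M1, M3 and M9), 0 aligned to the mitochondrial genome and 3 (M4, M6 and M10) aligned nowhere else. How the authors treated reads that match several places is not given in the sources used here, and the part of copies in these heights was not tested.

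The farthest desert region was also the third tallest. M3 at chr1:102628161-102628360 lies 2140 kb from Cdh20, a cadherin gene, and 2855 kb from Cntnap5b, a neuronal adhesion gene. Its heights were 11.1 in replicate 1, 8.34 in replicate 2 and 8.37 in replicate 4, and it held 3 footprints in each library. In its window 64.1% of words were unique, and it had 2 near copies elsewhere, the best of 93.9% identity over 180 bp on chromosome 17. The other 4 of the 5 farthest regions (M255, M178, M336 and M113, at 1632 to 2130 kb) were ordinary in size, with mean heights of 0.651 to 1.35.

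M4, at chr13:107831301-107831500 and 213 kb from Smim15, was the tallest region made of unique words throughout. It had heights of 6.63, 6.14 and 9.22, and lies inside a noncoding gene. M5 at chr1:7397821-7398040 sits on the TSS of the lincRNA Gm26901, with heights of 7.06, 5.05 and 8.5, a GC content of 61.5% and an observed over expected CpG ratio of 0.849. M10, 243 kb from Reep3, a membrane protein gene of the endoplasmic reticulum, had heights of 4.02, 3.74 and 5.71. M11, 351 kb from Actbl2, an actin-like gene, had 4.17, 3.49 and 5.52 and lies on the TSS of the lincRNA Gm38397. The remaining tall regions, M6 near Atp23, M7 near Ddx18 and M8 near Atp10a, had mean heights of 6.32, 5.83 and 5.14.

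**Figure D2:**
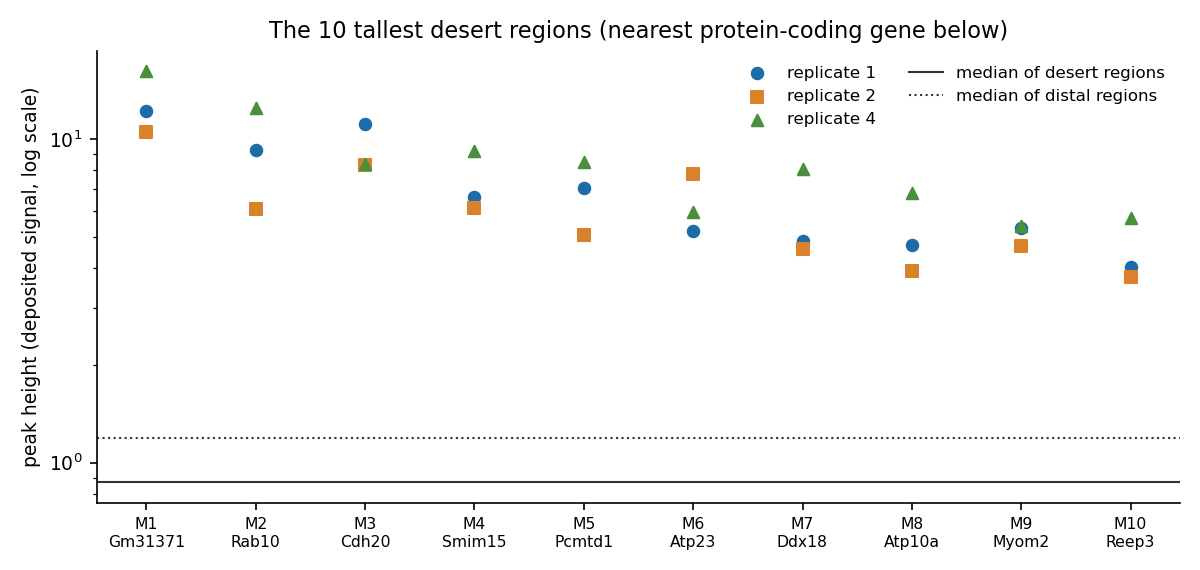
Peak height (deposited signal, log axis) of the 10 tallest desert regions in each library, ordered by mean height, with the nearest protein-coding gene under each name; the lines give the mean over libraries of the median height of desert regions (0.87) and of distal regions (1.19). Every one of the 10 regions stands above both lines in all 3 libraries.

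Differences between libraries were modest for most members. After division by the library's median over all shared regions, the highest library was a median of 1.32 times the lowest for desert regions and 1.28 times for distal regions. The widest spreads were M159 near Chd7, a chromatin remodeller, with heights of 0.989, 1.52 and 0.891 and a scaled ratio of 2.37, M286 near Efnb2, an ephrin, with 0.462, 0.47 and 1.24, and M271 near Pcmtd1, with 0.569, 0.399 and 1.3. M159 stood high in replicate 2, and M286 and M271 stood high in replicate 4.

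A stricter view comes from the authors' shorter peak lists. Of the desert regions, 264 (56.9%) had a shorter-list peak in all 3 libraries, against 63.4% of distal regions and 71.6% of all shared autosomal regions. Another 48 desert regions (10.3%) had none in any library, against 5.93% of distal regions. The median log10 of the best FDR of cleavage under a region, as the authors deposited it, was -6.48, -4.23 and -6.03 for desert regions in replicates 1, 2 and 4, against -7.36, -4.91 and -7.54 for distal regions, so desert peaks had the weaker FDR in each library.

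Footprints were present in most desert regions. A footprint overlapped 94%, 83.4% and 87.1% of them in replicates 1, 2 and 4, against 95.4%, 90.4% and 91.6% of distal regions. The difference was -4.34 ± 2.78 percentage points (SD, n = 3), with the same sign in each library and p = 0.25 by the two-sided exact sign-flip test. Against intergenic regions at 50 to 200 kb, with 93.4%, 88.5% and 86.9%, the difference was -1.44 ± 3.16 points (SD, n = 3) and desert regions had the higher share in replicates 1 and 4. All 3 libraries had a footprint in 330 desert regions (71.1%, exact 95% binomial interval 66.8 to 75.2), against 82.2% of distal regions and 82.1% of all shared regions. Per kb of region, desert regions held 0.868 ± 0.00754 times as many footprints (SD, n = 3).

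Desert regions were also lower, as given above. With peaks below the median height of their library left out, that is on the taller 50%, the difference in the share with a footprint was 0.551 ± 0.722 points (SD, n = 3, 136 desert regions), so the direction did not hold. The part of height in the difference was not tested. With replicate 1 left out the difference was -7.5 points, and with replicate 2 left out -6.84, over regions open in the other libraries. Of the 464 regions, 2 had no footprint in any library: M372 near Ptger4, with heights of 0.544, 0.372 and 0.854, and M463 near Robo2, with 0.272, 0.346 and 0.334.

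CTCF patterns were scarce in the desert. A match lay in 41 desert windows (8.84%, interval 6.42 to 11.8), against 21.1% of distal windows (20.5 to 21.7) and 13.3% of all shared regions. The difference was -12.3 points, and -5.96 points with a stricter pattern. Windows 5 kb to either side had a match in 0.754% of cases around desert regions (7 of 928) and 2.07% around distal regions (659 of 31763). The pattern was thus 11.7 times as frequent as in its surroundings in desert regions and 10.2 times in distal regions. The desert ratio rests on those 7 windows, so the 2 ratios are not shown to differ. Among intergenic regions the share was 22.2% at 1 to 10 kb, 23% at 10 to 50 kb, 15.1% at 50 to 100 kb, 11.6% at 100 to 200 kb, 8.69% at 200 to 500 kb and 10.5% beyond 500 kb.

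Most of the CTCF matches that were present were overlapped by a footprint. A match is counted as under a footprint when a footprint overlaps any base of it, here and for the patterns below. In replicates 1, 2 and 4, 37, 30 and 30 of the 41 lay under a footprint, and 26 (63.4%) did so in all 3 libraries, against 79.3% of the distal matches. Desert regions with a match were taller than those without, with median heights of 1.09, 0.842 and 1.16 against 0.866, 0.736 and 0.953.

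The shares of windows with a myeloid pattern ran the other way. PU.1 matches lay in 54 desert windows (11.6%, interval 8.86 to 14.9), against 8.29% of distal windows (7.86 to 8.73), 6.37% of all shared regions and 1.83% of the windows 5 kb from desert regions. RUNX matches were in 9.7% of desert against 6.87% of distal windows (5.28% of all shared regions), and IRF matches in 4.74% against 2.76% (2.35%). C/EBP matches, in 13.6% against 11.2% (9.31%), and AP-1 matches, in 11.9% against 10.2% (7.73%), had desert intervals that contain the distal value. Around desert regions the windows 5 kb away held RUNX in 3.99%, IRF in 2.8%, C/EBP in 10.2% and AP-1 in 5.17% of cases, so the C/EBP letters stood out least from their surroundings. Relative to such windows, PU.1 was 6.35 times as frequent in desert and 6.09 times in distal regions, which is close. The ratios were 2.43 and 1.24 for RUNX, 1.69 and 1.09 for IRF and 2.29 and 1.82 for AP-1. For C/EBP the desert ratio was the lower, at 1.33 against 1.57. Any of these 5 patterns was in 192 desert windows (41.4%, interval 36.9 to 46), against 33.6% of distal windows. Intergenic regions at 50 to 200 kb had any of them in 38.2%, PU.1 in 8.94% and RUNX in 7.72% of windows, all inside the desert intervals, and IRF in 2.95%, just below the desert interval for IRF (2.99 to 7.09). The higher shares are not shown to be particular to the desert.

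Most matches to the 5 patterns lay outside footprints. For PU.1, 8, 6 and 10 of the 54 desert matches lay under one in replicates 1, 2 and 4, and 1 did so in all 3 libraries (1.85%, M192 near Snurf on chromosome 7), against 6.07% of distal matches. The other patterns varied in this share. Under a footprint in all 3 libraries were 6 of 55 AP-1 matches in desert (10.9%), against 5.82% in distal windows. For IRF matches it was 3 of 22 (13.6%) against 7.76%, and for C/EBP matches 6 of 63 (9.52%) against 10.6%. For RUNX matches it was 0 of 45 against 7.42%. A rule of thumb of 3 counts allows a share of up to 6.67% for 0 of 45. That limit is narrower than the exact intervals used elsewhere, so the RUNX shares are not shown to differ. These shares rest on few desert matches, and the differences were not tested. The highest share in a single library was 45.5%, of the 22 desert IRF matches in replicate 4. Desert windows with a PU.1 match had heights close to the rest, with medians of 0.874, 0.776 and 0.99 against 0.882, 0.74 and 0.972. A match is a run of letters and not a measured binding site. A window without a match can still hold a variant that the pattern leaves out. M4, which has no PU.1 match, holds AAGGAAGT on the minus strand. Of the other 7 patterns searched, KLF/SP (GGGNGGGGC) was in 4.09% of desert windows, 5.91% of distal windows and 12.5% of all shared regions. AGATAA, a pattern for the factor family named GATA, was in 6.25%, 5.37% and 4.11%. Windows 5 kb away held AGATAA more often, in 12.7% of cases around desert regions and 9.66% around distal regions. The patterns of NF-kappaB, MEF2, NR4A (AAAGGTCA), the octamer (ATGCAAAT) and the E-box (CACGTG) lay in 0.647% to 4.53% of desert windows. A base can belong to matches of several patterns.

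**Figure D3:**
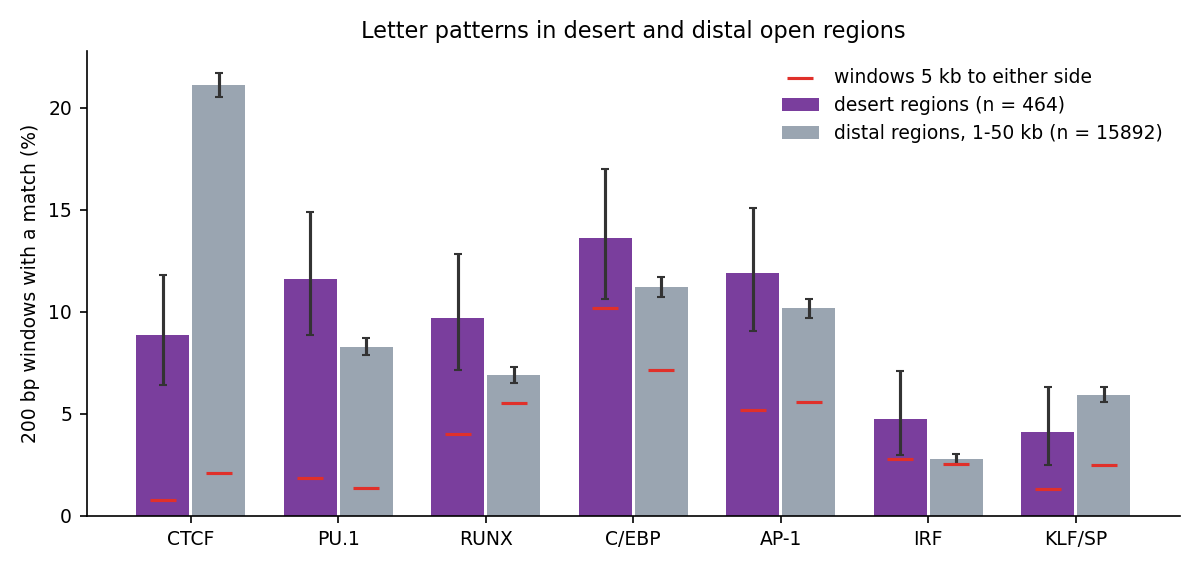
Percentage of 200 bp windows with at least 1 match to each pattern in desert regions (purple, left bars) and distal regions (grey, right bars), with exact 95% binomial intervals; red dashes give the windows 5 kb to either side of the same regions. The CTCF share is lower in desert regions, with intervals that do not overlap (8.84% against 21.1%), while the PU.1 share is higher there (11.6% against 8.29%).

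Base composition was near that of distal regions. The median GC content was 49.5% in desert and 52% in distal windows, and the median width was 240 bp in desert and 220 bp in distal regions. Only 17 desert regions (3.66%) were rich in CpG, with a GC content over 55% and a CpG ratio of at least 0.6, against 7.34% of distal regions. In 37 desert regions (7.97%, interval 5.68 to 10.8) most 31-base words were not unique, against 1.71% of distal regions. Without those regions on both sides, the height ratio was 0.729 ± 0.0164 and the CTCF difference -12.2 points.

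Noncoding genes lay in and around part of the desert regions. A noncoding TSS lay within 1 kb of 46 desert regions (9.91%), of which 25 were lincRNA starts, against 6.75% of distal regions. The body of a noncoding gene covered 117 desert regions (25.2%), against 11.2% of distal regions. Within 50 kb of 11 desert regions (2.37%, against 0.0944% of distal regions) lay an immunoglobulin or T cell receptor segment, a kind of gene that the annotation does not class as protein-coding. They were low, with median heights of 0.552, 0.497 and 0.433. Of these, 6 have Dad1, a subunit gene of the oligosaccharyltransferase beside the T cell receptor alpha locus, as their nearest protein-coding gene. M24 and M47 of that group had mean heights of 2.7 and 2.07, with 15.3% and 38.2% unique words.

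Although far from any protein-coding TSS, desert regions were not scattered evenly. Peaks that do not overlap count as separate regions here, however close they lie. Counts of neighbours, of regions in a run and of regions per gene therefore need not count distinct elements. Another shared region lay within 20 kb of 232 desert regions (50%, interval 45.4 to 54.6), against 83% of distal regions and 65% of intergenic regions at 50 to 200 kb. Any shared region counts as a neighbour, promoters included. The shares also depend on density, which was 0.865 regions per Mb in desert and 15.4 in distal sequence. They therefore do not rank the classes by clustering. Joined where at most 20 kb apart, the 464 regions formed 317 groups, of which 234 were single regions, 44 were pairs, 25 held 3 members and the largest held 8. By chromosome the density ran between 0.434 regions per Mb of desert on chromosome 5 and 2.11 on chromosome 13.

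The largest run held 8 regions in 27.5 kb at chr9:60998182-61025700, 204 to 231 kb from Uaca, a regulator of apoptosis. Some of them nearly touch, such as M28 and M99, which lie 40 bp apart. Its tallest members were M28, with heights of 2.82, 2.39 and 2.31, M32, with 2.3, 1.84 and 3.12, and M62, with 1.99, 1.62 and 1.93. The run held 2 PU.1 matches and no CTCF match. Of 4 runs that tie at 5 regions, the one with the largest summed height, at chr9:61680981-61708280 near Rplp1, a ribosomal stalk protein gene, lies across the gene Tle3 from the largest run. The other 3 lie near Klf4, Id2 and Dad1. Its tallest member, M12, had heights of 4.15, 3.72 and 4.44.

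Tle3 codes for a corepressor of the Groucho family, and was the gene that bordered the most desert regions, 18 in all, with 12 below and 6 above it at 208 to 374 kb, although it was the nearest gene of only 2 of them. It was picked out after its values were seen. The Tle3 promoter was open in all 3 libraries, and so was that of Rplp1, while Uaca had no promoter peak in any library.

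The second largest run was 7 regions in 39.9 kb at chr10:96337901-96377800, between the predicted gene Gm5426 and Btg1, an antiproliferative gene. M13, with heights of 4.71, 3.08 and 4.21, and M14, with 3.53, 3.38 and 4.65, led it. Gm5426 had no promoter peak, and Btg1 was open in all 3 libraries. None of the 7 held a CTCF or PU.1 match.

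Genes beside desert regions were often open themselves. The 464 regions had 227 nearest genes, of which 142 (62.6%, interval 55.9 to 68.9) were open in all 3 libraries, against 528 of the 1319 other genes that border desert sequence (40%, 37.4 to 42.7). All autosomal genes stand at 51.8%. Where the nearest gene was open in all 3 libraries, the desert held 1.46 regions per Mb (95% Poisson interval 1.3 to 1.64), and where it was open in none, 0.454 (0.379 to 0.54). Neither class was the taller in all 3 libraries, with median heights of 0.882, 0.718 and 0.99 beside open genes and 0.858, 0.816 and 0.941 beside closed ones. Genes nearest to a desert region also bordered more desert, a median of 239 kb, against 184 kb for the other bordering genes. The nearest gene on the line of the chromosome need not be the gene a site acts on, and no contact or expression was measured.

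The genes nearest to the most desert regions were Uaca with 11, Id2 and Klf4 with 10 each, Jarid2 with 9, and Hlx and Ptger4 with 7 each. Then came Gm5426, Nfe2l3, Dad1, Cited2, Adgrl2 and Gm826 with 6 each. All of these genes were open in all 3 libraries except Uaca, Gm5426, Adgrl2 and Gm826. Another 121 genes were nearest to 1 region.

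Klf4 is a zinc finger factor needed for inflammatory monocytes in mice. Its 10 desert regions spread over 373 kb, 209 to 582 kb from its TSS, in the interval up to the predicted gene Gm26657. A run of 5 lay at 266 to 292 kb, led by M30 with heights of 2.4, 2 and 2.98 and by M69 with 1.56, 1.65 and 2.09. M69 carried the only CTCF match of the group, and M215, printed above, the only PU.1 match, with heights of 0.998, 0.7 and 0.99. The farthest, M196, still had 0.8, 1 and 1.11. M422 and M456, at 328 and 393 kb, were the lowest, at mean heights of 0.486 and 0.373.

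Id2 codes for an inhibitor of basic helix-loop-helix factors that dendritic and natural killer cells need. Its 10 regions lay 223 to 420 kb away, towards Rnf144a, a ubiquitin ligase gene. M21, printed above, had 2.59, 2.47 and 3.58, and M29 had 2.47, 1.98 and 2.96. All 10 had a footprint in all 3 libraries, 1 had a CTCF match and 0 had a PU.1 match.

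Jarid2, a partner of Polycomb repressive complex 2, had 9 regions at 224 to 425 kb, all on the side of Cd83, a surface glycoprotein gene of activated antigen-presenting cells, whose promoter was also open in all 3 libraries. M20 was the tallest with 3.03, 2.64 and 3.19. The 7 regions of Hlx, a homeobox factor gene, lay 252 to 337 kb away, towards Dusp10, a phosphatase gene of the MAP kinase pathway, with M39 at 2, 2.21 and 2.48. The 7 regions of Ptger4, a prostaglandin E2 receptor gene, lay 202 to 295 kb away, towards Dab2, an endocytic adaptor gene, with M22 at 2.93, 2.16 and 3.48.

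**Figure D4:**
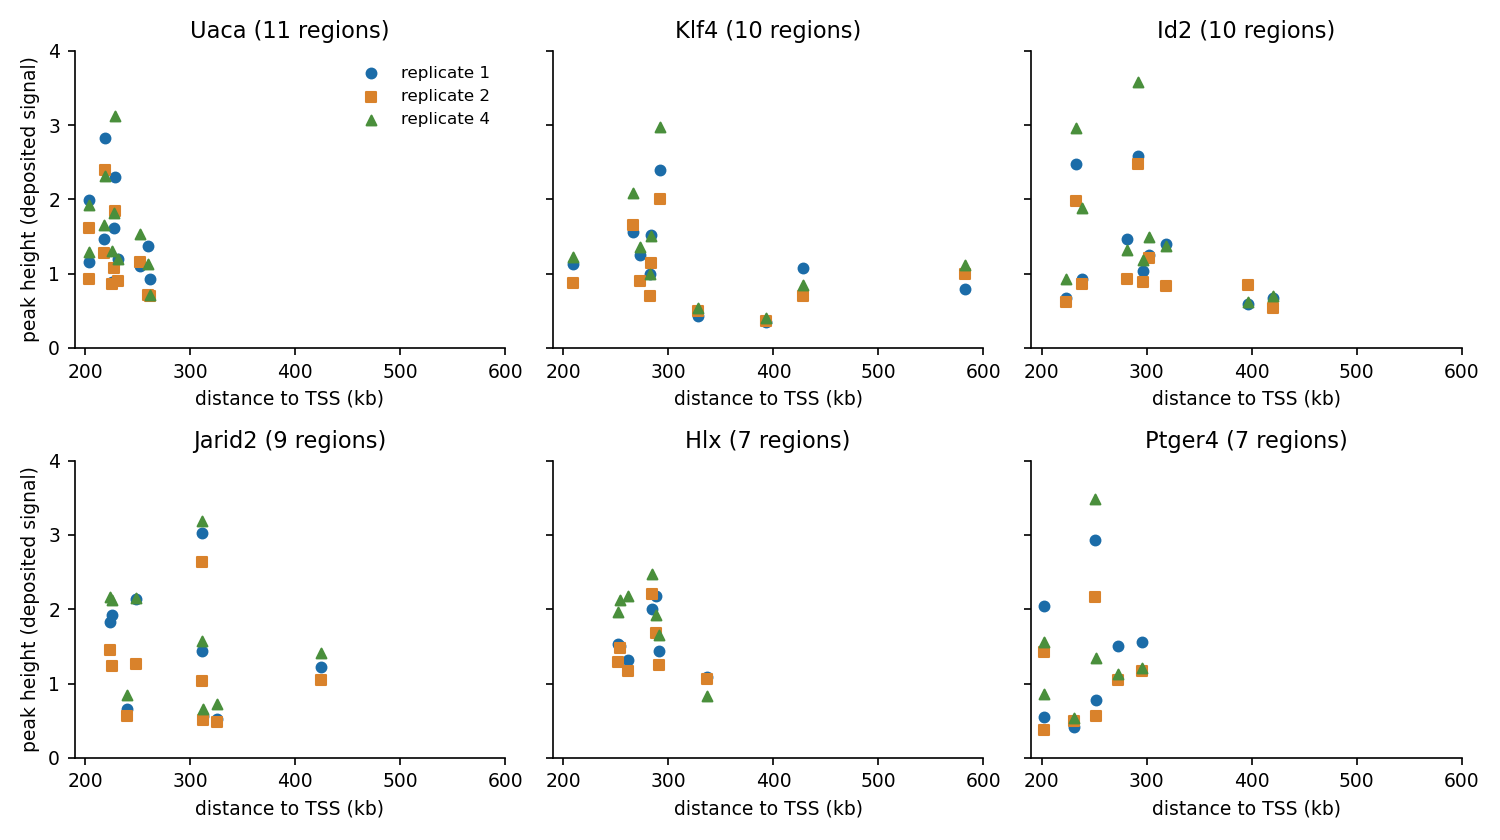
Peak height (deposited signal) of each desert region against its distance in kb to the TSS of its nearest gene, for the 6 genes with the most regions; each region has a point for each library. The Uaca regions crowd within 204 to 262 kb, while those of Klf4 and Id2 reach 582 and 420 kb.

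Of 64 genes listed as myeloid regulators, 20 bordered desert sequence and 12 of these (60%) were nearest to a desert region, against 227 of all 1546 bordering genes (14.7%). They were nearest to 44 desert regions, 5.12 per Mb of their desert, against 0.865 per Mb overall. Besides Klf4 and Id2, with 10 regions each, the 12 were Maf with 4 regions, Runx1, Ets1, Mef2c and Zeb2 with 3 each, Klf6, Foxo1 and Myc with 2 each, and Klf3 and Tcf4 with 1 each. The 8 bordering genes with none were Nr4a2, Nr4a3, Runx2, Jun, Bcl6, Tfec, Meis1 and Foxp1. Of the 20, 19 were open in all 3 libraries. Among all bordering genes open in all 3, 142 of 670 were nearest to a desert region, with 1.46 regions per Mb. With the taller 50% of peaks, which left 136 desert regions, 6 myeloid regulators were nearest to a desert region. The share of all bordering genes was not computed at that setting.

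The regulators differed in how far and how tall their regions were. Runx1, a core factor of blood cell development, had 3 regions at 203 to 208 kb, the tallest with 2.52, 2.38 and 3.5. Maf, a bZIP factor of macrophages, had 4 at 212 to 309 kb, the tallest with 1.72, 1.7 and 2.86. Zeb2, a zinc finger repressor active in monocyte and dendritic cell development, had 3 low regions at 1134 to 1326 kb, the tallest with 0.693, 0.727 and 0.718. The tallest regions of Mef2c, Myc, Tcf4 and Klf3 had mean heights of 0.612 to 0.75.

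Few of the immune effector genes listed bordered desert, though the share of both lists was above that of all autosomal genes (1546 of 20696). Of 30 innate receptor and adhesion genes 4 did, and 2 were nearest to a region: Cxcr4, the CXCL12 receptor, with 4 regions at 219 to 240 kb, and Tlr4, the endotoxin receptor, with 1 at 381 kb (1.09, 1.36 and 1.41). The tallest Cxcr4 region had 2.41, 1.86 and 2.75. Of 24 cytokine and chemokine genes 3 did, and 1, Il12b, was nearest to a region, with heights of 0.429, 0.434 and 0.829.

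Developmental and neuronal genes bordered much more desert. Of 50 developmental transcription factor genes, 38 bordered it and 9 (23.7%) were nearest to a region, with 14 regions and 0.926 per Mb. They were Sox4, Sox9, Tbx3, Sall3 and Prdm1 with 2 regions each and Satb1, Meis2, Bcl11a and Ebf1 with 1 each. Of 46 neuronal adhesion and synapse genes found in the annotation, 43 bordered it and 3 (6.98%) were nearest to a region: Cdh20, Lrfn5 and Robo2, with 1 each. That is 0.052 regions per Mb in 57.6 Mb of desert. The lists were written with results of these data known, so these shares describe the lists and carry no test.

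**Figure D5:**
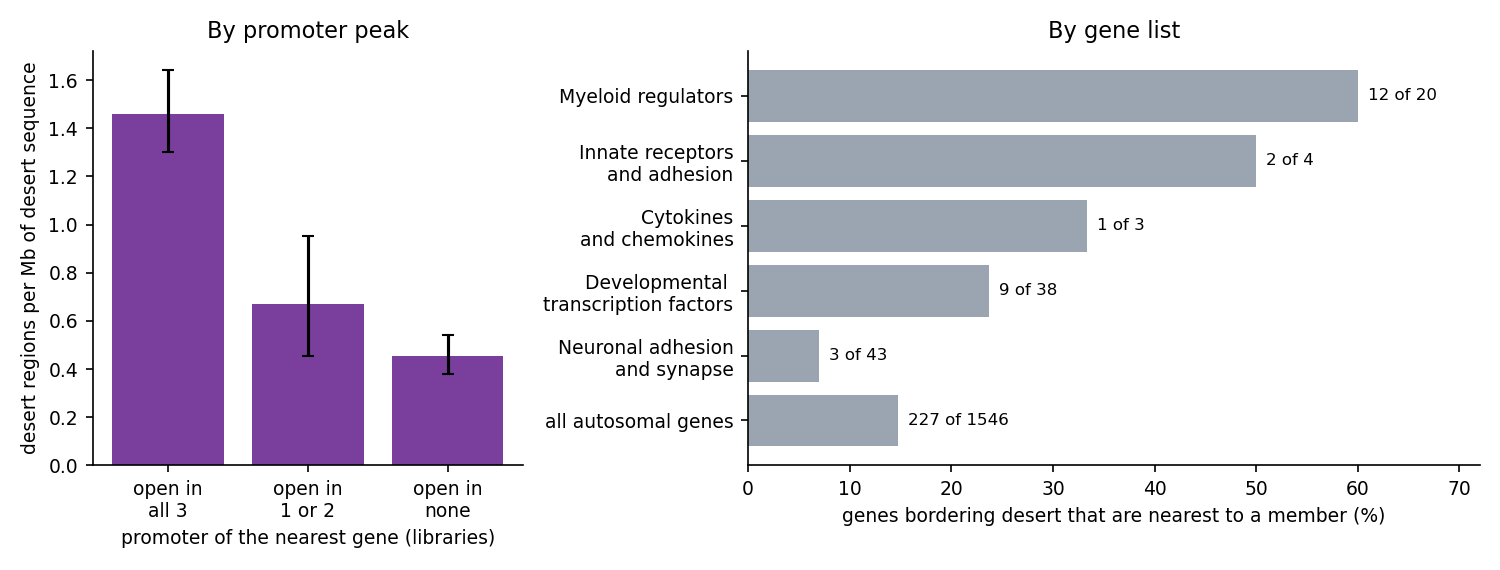
Left, desert regions per Mb of desert sequence by the number of libraries with a promoter peak at the nearest gene, with 95% Poisson intervals; right, the percentage of the genes bordering desert that are nearest to at least 1 desert region, for 5 gene lists and for all autosomal protein-coding genes. The density is 1.46 per Mb beside open and 0.454 beside closed genes, and the share is 60% for myeloid regulators and 6.98% for neuronal genes.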

How the data were processed

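DNase-seq of 3 monocyte libraries was analysed from the deposited peak, footprint and cleavage files, which the file descriptions place on mm10 and derive from the filtered alignment of each library, not from pooled reads. No source used here names the aligner or the callers. Peak height, as deposited by the authors, is a cleavage signal whose scaling is not stated. The longer list was used, and the shorter one was an alternative. Each deposited footprint carries the same p-value of 0.01, which was not used, and the FDR intervals, deposited p-values under 0.05, served to describe peaks. Depth is unknown.

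Peaks were merged and matched to GENCODE release 21 basic genes and the GRCm38.p6 assembly with Python 3.11.15, numpy 2.4.6, scipy 1.17.1 and blastn 2.17.0. A region's height in a library is its tallest peak. Patterns were searched in 200 bp around the midpoint. Desert was counted as assembled sequence over 200 kb from a TSS and outside protein-coding genes, split between flanking genes by nearness. Scripts were tested on simulated data. Regions were named by rule: the 10 tallest, the 5 farthest, the 3 largest runs (ties by summed height), the 3 on either side of the limit, the 3 with the widest spread between libraries, and the tallest region of a gene or pattern shown. Genes were named when nearest to these, when among the 10 nearest to the most members (with ties), or when on a list. Other regions and Tle3 were named after their values were seen. The members and lists were chosen with earlier results of these data known. Alternatives covered the limit, peak list, overlap, reference regions, motif window and each library left out.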

Additional observations from a re-analysis of the deposited data

Results flagged for a closer look

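The X chromosome lies outside the comparisons, which cover autosomes. It held 8 desert regions with a peak of all 3 libraries, among 84 merged desert regions with a peak of any library, and this signal in data not otherwise used is why it is listed. Their median heights were 0.631, 0.563 and 0.6 in replicates 1, 2 and 4, below the autosomal desert medians of 0.882, 0.745 and 0.984. The difference was not tested.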

How the results depend on the processing

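Over 71 recomputed values 48 stayed near the reported ones, 22 moved and 1 reversed. Near means within the spread or interval of the reported value, except for the 7 counts of myeloid regulators. Those were judged by a fixed limit on their ratio to the reported count, and 4 of the 7 stayed near it. The height ratio of desert to distal regions (0.732) was 0.773 with a limit of 100 kb, 0.533 at 500 kb, 0.773 with the shorter peak list, 0.931 with the taller 50% of peaks, 0.869 against intergenic regions at 50 to 200 kb, and 0.7 to 0.724 with a replicate left out. The footprint difference (-4.34 points) reversed to 0.551 with the taller 50% of peaks, and was -10.9 at 500 kb, -0.978 with the shorter list, -1.44 against 50 to 200 kb and -7.5 to -5.28 with a replicate left out, with -7.5 without replicate 1 and -6.84 without replicate 2. The CTCF difference (-12.3 points) was -4.96 against 50 to 200 kb, -5.96 with the stricter pattern and -12.2 to -11 with a replicate left out. The difference in neighbours within 20 kb (-33 points) was -25.7 at 100 kb, -67.2 at 500 kb, -15 against 50 to 200 kb, -26.2 with a 10 kb join and -33 to -32.1 with a replicate left out. The density ratio (0.0563) was 0.116 at 100 kb, 0.0102 at 500 kb, 0.0506 with the shorter list and 0.0582 to 0.0587 with a replicate left out. Myeloid regulators nearest to a region (12) numbered 21 at 100 kb, 2 at 500 kb and 9 with the shorter list. They numbered 6 with the taller 50% of peaks and 12 to 14 with a replicate left out. The share of all bordering genes was not computed at these settings. These counts of myeloid regulators and the settings on unique sequence and on receptor loci were added after seeing the data. The cause of these shifts was not tested. No paired analysis was possible because the libraries form 1 group and no second group shares their numbers; classes of region were compared within each library. With 3 libraries and unknown depth, a missing peak does not show closed chromatin.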
